A study of Caenorhabditis elegans with 6 samples.

Results

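UDP-glucuronosyltransferases (UGTs) are encoded in Caenorhabditis elegans by a large family of genes named ugt with a number. All genes with such a name in the deposited gene table were taken, which gave 66 of 46926 genes, all protein coding, and 50 of them reached the level needed for testing. RNA was sequenced from whole N2 wild-type worms, grown on Escherichia coli OP50 to the late L4 or young adult stage, then kept for 5 h in NGM buffer with heat-treated OP50. One group received 25 µM chaetocin, a fungal toxin known as an inhibitor of lysine methyltransferases, and the other the solvent DMSO (0 µM chaetocin), with 3 libraries each. The comparison asks which of these genes differ in RNA level after the exposure. The labels number the libraries of each group as biological replicates but do not tell whether each came from its own culture, so a p-value measures the spread between these libraries, which may be technical.

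UGTs move a sugar from a UDP-activated donor onto small lipophilic molecules, which makes these more soluble in water and ready for export by ABC transporters. In vertebrates the usual donor is UDP-glucuronic acid, while nematodes are known to attach glucose as well. In worms the intestine is a main site of this conjugation, and many ugt genes lie side by side in tandem arrays. The encoded proteins were alike in size, with 501 to 558 residues in the longest coding sequence and 4 to 11 exons (Ensembl annotation of WBcel235).

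With chaetocin, 15 of the 66 UGT genes rose and 5 fell (limma, p under 0.05 after Benjamini-Hochberg, BH, adjustment over all genes). The rises were the larger changes: 4 genes, ugt-1, ugt-2, ugt-3 and ugt-62, rose at least 8-fold and ugt-61 and ugt-48 at least 4-fold, while the falls of ugt-63 and ugt-13 were about 2-fold and the other 3 were smaller. Levels are FPKM, fragments scaled by transcript length and library size, as the authors deposited them, and fold changes come from a fit on log2(FPKM + 0.1), which makes changes at low levels look smaller than they are. A gene entered the test when 3 or more libraries held it at 0.5 FPKM or above. Of the 50 UGT genes tested, 15 (30%, or 22.7% of all 66) were higher and 5 (10%, or 7.6% of all 66) lower, against 5.48% and 2.94% of all 15213 genes in the fit, of which 8.42% passed in either direction. At least 2-fold higher were 10 of the 50 UGT genes, against 2.14% of all genes, and at least 8-fold higher were 4 of the 50, against 0.493%. At least 2-fold lower were 2 of the 50, against 0.532% of all genes. The median log2 fold change was 0.02 over the tested UGT genes and -0.0037 over all tested genes. The shares are descriptions of these libraries, and no test of the difference between UGT genes and other genes was run.

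The highest UGT level in the series was that of ugt-62 (WBGene00010904, chromosome III, 4537281 to 4540623). It stood at 95.4, 104 and 105 FPKM in the chaetocin libraries, against 9.82, 10.6 and 12.05 FPKM in the DMSO libraries. Each chaetocin library was far above each DMSO library. The mean was 9.36 times as high, with a log2 fold change of 3.23 ± 0.08 (± is the standard error throughout for fold changes; limma, BH-adjusted p = 3.307e-06). The gene ranked first of the 66 in level with chaetocin and seventh with DMSO. ugt-61 (WBGene00018206, chromosome V, 4742422 to 4745373), also without a UGT neighbour within 10 kb, rose as evenly. It had 34.7, 32.7 and 34.6 FPKM in the chaetocin libraries, against 4.67, 4.83 and 4.08 FPKM in the DMSO libraries. The groups were well apart, and the log2 fold change was 2.90 ± 0.09 (limma, BH-adjusted p = 6.708e-06).

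The adjacent genes ugt-1 (WBGene00007072, chromosome V, 10395663 to 10397820) and ugt-2 (WBGene00007073, 10398801 to 10401307) rose to similar extents. ugt-1 had 51.9, 50.6 and 53.4 FPKM in the chaetocin libraries, against 3.70, 3.02 and 5.19 FPKM in the DMSO libraries. ugt-2 had 39.4, 39.1 and 42.4 FPKM in the chaetocin libraries, against 2.66, 3.08 and 4.29 FPKM in the DMSO libraries. In both genes DMSO replicate 3 was the highest of its group and still far below every chaetocin library. Their log2 fold changes were 3.72 ± 0.16 and 3.59 ± 0.15 (limma, BH-adjusted p = 2.689e-05 and 2.113e-05). How alike the sequences of these neighbours are was not examined, and fragments that match both genes are split by estimation.

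The largest fold change was that of ugt-3 (WBGene00013903, chromosome V, 12798308 to 12800271). It had 17.4, 18.1 and 21.5 FPKM in the chaetocin libraries, against 0.240, 0.180 and 1.02 FPKM in the DMSO libraries. DMSO replicate 3 was again the highest of its group, several times the other DMSO libraries, and all chaetocin libraries lay far above it. The log2 fold change was 5.34 ± 0.48 (limma, BH-adjusted p = 0.0007157). It lay between 4.96 and 5.94 when 1 library was left out and fell to 3.81 with a pseudocount of 1 FPKM. ugt-48 (WBGene00015965, chromosome V, 5545669 to 5548062) had 9.64, 11.3 and 12.4 FPKM in the chaetocin libraries, against 2.05, 2.37 and 3.20 FPKM in the DMSO libraries. The groups did not overlap, and the log2 fold change was 2.11 ± 0.17 (limma, BH-adjusted p = 0.0004053). It shares 121 bases with the gene cft-1 on the opposite strand, which stood between 0.47 and 0.69 FPKM in all libraries; none of the other 19 UGT genes that rose or fell overlaps a further protein-coding gene.

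**Figure D1:**
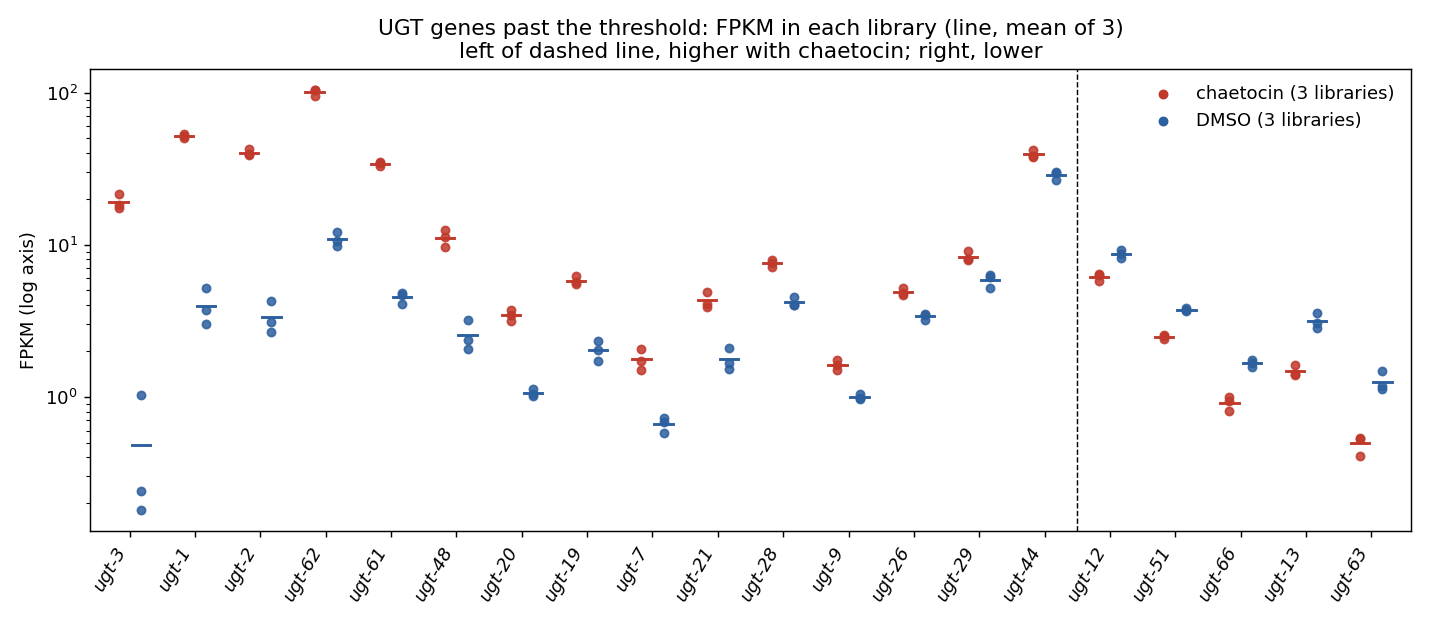
FPKM (log axis) of the 20 UGT genes past the threshold in each of the 3 chaetocin libraries (red) and 3 DMSO libraries (blue), with short lines at the means. In the 15 genes left of the dashed line every chaetocin library lies above every DMSO library, with the widest gap for ugt-3, and in the 5 genes on the right every one lies below.

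Another 9 UGT genes rose less than 4-fold. ugt-20 and ugt-19, neighbours on chromosome IV, rose about 3-fold. ugt-20 had 3.73, 3.15 and 3.46 FPKM in the chaetocin libraries, against 1.04, 1.13 and 1.01 FPKM in the DMSO libraries. ugt-19 had 5.69, 5.48 and 6.26 FPKM in the chaetocin libraries, against 1.73, 2.34 and 2.04 FPKM in the DMSO libraries. In neither gene did the groups come near each other, and the log2 fold changes were 1.62 ± 0.13 and 1.49 ± 0.14 (limma, BH-adjusted p = 0.0004542 and 0.0007302). ugt-7, on chromosome V with no UGT neighbour within 10 kb, averaged 1.76 ± 0.278 FPKM with chaetocin and 0.663 ± 0.0764 FPKM with DMSO (SD, n = 3 each), and ugt-21 on chromosome IV averaged 4.30 ± 0.537 and 1.76 ± 0.303 FPKM in the same order. Their log2 fold changes of 1.29 ± 0.19 and 1.26 ± 0.15 passed the test (limma, BH-adjusted p = 0.007184 and 0.002714).

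The smallest rises, under 2-fold, were in ugt-28, ugt-9, ugt-26, ugt-29 and ugt-44. ugt-44 (WBGene00008486), which was abundant in both groups, had 38.5, 41.8 and 37.6 FPKM in the chaetocin libraries, against 30.01, 26.7 and 29.6 FPKM in the DMSO libraries. Its chaetocin values all lay above its DMSO values, and the small log2 fold change of 0.46 ± 0.07 passed (limma, BH-adjusted p = 0.007198). ugt-28 had a log2 fold change of 0.84 ± 0.10, with 7.54 ± 0.393 FPKM with chaetocin and 4.19 ± 0.309 FPKM with DMSO (SD, n = 3 each; limma, BH-adjusted p = 0.00217). ugt-9, ugt-26 and ugt-29 had log2 fold changes of 0.67 ± 0.15, 0.53 ± 0.10 and 0.52 ± 0.10 (limma, BH-adjusted p = 0.04425, 0.02265 and 0.02156). These 3 calls are the ones among the 15 that depended on a single library. The ugt-9 call was lost without any 1 of the 6 libraries (adjusted p up to 0.1386), the ugt-26 call without any 1 of them other than DMSO replicate 3 (up to 0.08157), and the ugt-29 call without chaetocin replicate 2 or 3 or DMSO replicate 1 or 2 (up to 0.07612).

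Of the 5 UGT genes that fell, ugt-13 (WBGene00019232, chromosome V, 4908884 to 4911399) was the 1 whose call remained without each library in turn. It had 1.63, 1.4 and 1.42 FPKM in the chaetocin libraries, against 3.04, 3.55 and 2.84 FPKM in the DMSO libraries. The groups did not overlap, and the log2 fold change was -1.02 ± 0.15 (limma, BH-adjusted p = 0.006015). ugt-63 (WBGene00015449) had 0.530, 0.540 and 0.410 FPKM in the chaetocin libraries, against 1.13, 1.17 and 1.47 FPKM in the DMSO libraries, and a log2 fold change of -1.18 ± 0.21 (limma, BH-adjusted p = 0.01505). Its call was lost without DMSO replicate 1 or 2 (adjusted p up to 0.0581). ugt-66, ugt-51 and ugt-12 had log2 fold changes of -0.79 ± 0.16, -0.56 ± 0.10 and -0.48 ± 0.08 (limma, BH-adjusted p = 0.02673, 0.01665 and 0.01528). ugt-12 was the most abundant of the 5, with 6.16 ± 0.329 FPKM with chaetocin and 8.70 ± 0.5 FPKM with DMSO (SD, n = 3 each). The calls of ugt-66, ugt-51 and ugt-12 were each lost without some libraries (adjusted p up to 0.1063, 0.07363 and 0.06528): ugt-66 without any 1 library other than DMSO replicate 3, ugt-51 without chaetocin replicate 1 or 3 or DMSO replicate 1 or 2, and ugt-12 without chaetocin replicate 1 or 2 or DMSO replicate 1 or 2.

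**Figure D2:**
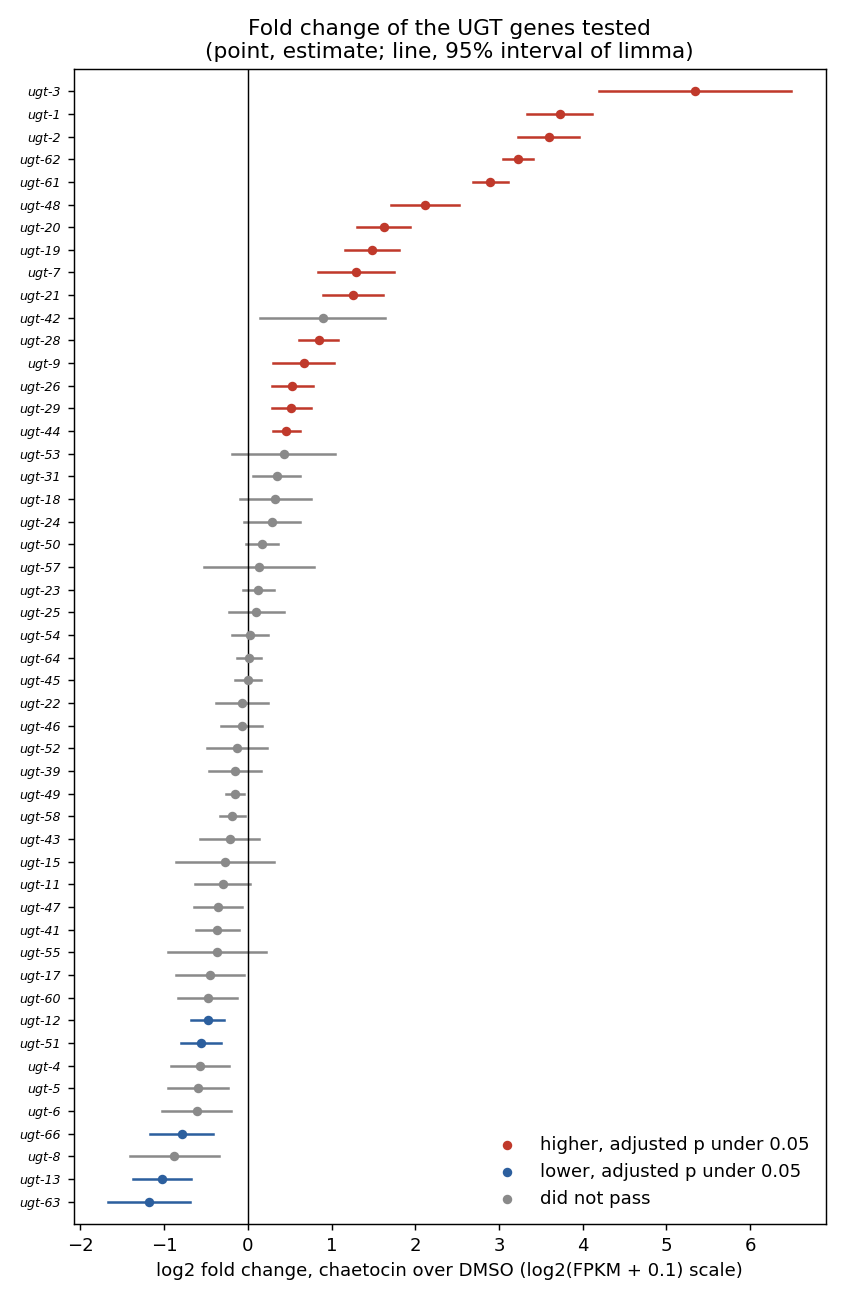
Log2 fold change of chaetocin over DMSO on the log2(FPKM + 0.1) scale for the 50 UGT genes tested, with 95% intervals from limma. The 15 genes that rose (red) reach 5.34 (ugt-3), the 5 that fell (blue) reach -1.18 (ugt-63), and 30 genes (grey) did not pass.

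The remaining 30 tested UGT genes did not pass, with log2 fold changes between -0.876 (ugt-8) and 0.893 (ugt-42). For 26 of them the 95% interval of the log2 fold change lay within 1 of 0 on both sides, so a change of 2-fold or more lay outside the interval. In 11 of the 30 all chaetocin libraries were below all DMSO libraries, and in 2, ugt-31 and ugt-42, all were above. Over the 50 tested UGT genes, 34.0% had all chaetocin libraries above and 32.0% had all below, against 12.4% and 14.6% of all tested genes. The 3 closest to the threshold were ugt-5, ugt-4 and ugt-8. ugt-5 had 2.87, 2.59 and 2.38 FPKM in the chaetocin libraries, against 4.34, 3.27 and 4.59 FPKM in the DMSO libraries. ugt-4 had 1.59, 1.81 and 2.05 FPKM in the chaetocin libraries, against 3.02, 2.64 and 2.65 FPKM in the DMSO libraries. Both genes had lower values in every chaetocin library, with log2 fold changes of -0.60 ± 0.15 and -0.57 ± 0.15 that missed the threshold (limma, BH-adjusted p = 0.063 and 0.06389). The ugt-8 log2 fold change was -0.88 ± 0.22 (limma, BH-adjusted p = 0.0649).

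Several abundant UGT genes showed little difference. ugt-64 (WBGene00015577), first in level with DMSO and sixth with chaetocin, had 31.3, 30.95 and 33.1 FPKM in the chaetocin libraries, against 31.3, 33.6 and 30.5 FPKM in the DMSO libraries. The groups overlapped, and the 95% interval of the log2 fold change lay between -0.13 and 0.16 (limma, BH-adjusted p = 0.93). ugt-49 averaged 20.4 FPKM with chaetocin and 22.9 FPKM with DMSO, with an interval of -0.26 to -0.05 (limma, BH-adjusted p = 0.09509). ugt-23 and ugt-50 had overlapping groups and BH-adjusted p (limma) of 0.4509 and 0.3142. ugt-58 averaged 17.3 FPKM with chaetocin and 19.8 FPKM with DMSO, with all chaetocin libraries below all DMSO libraries. Its interval was -0.34 to -0.04 (limma, BH-adjusted p = 0.1463). ugt-22, known for altering the efficacy of the anthelmintic albendazole in C. elegans, had 3.72, 3.51 and 4.26 FPKM in the chaetocin libraries, against 4.05, 4.49 and 3.62 FPKM in the DMSO libraries. These values overlapped too, with an interval of -0.38 to 0.24 for the log2 fold change (limma, BH-adjusted p = 0.8271).

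Below the level needed for testing were 16 of the 66 genes, all listed at 0.64 FPKM or less in every library. Just outside the filter, ugt-36 had 0.45, 0.32 and 0.64 FPKM in the chaetocin libraries, against 0.27, 0.24 and 0.47 FPKM in the DMSO libraries. ugt-30 had 0.17, 0.26 and 0.25 FPKM in the chaetocin libraries, against 0.46, 0.47 and 0.52 FPKM in the DMSO libraries, and its groups did not overlap. Just inside it, ugt-42 passed only through its chaetocin libraries (0.59, 0.56 and 0.92 FPKM, against 0.42, 0.21 and 0.36 FPKM with DMSO). ugt-3 also needed its chaetocin libraries to pass, since among its DMSO libraries only replicate 3 (1.02 FPKM) reached 0.5 FPKM. ugt-8 passed only through its DMSO libraries, with 0.41, 0.29 and 0.35 FPKM with chaetocin and 0.74, 0.71 and 0.73 FPKM with DMSO. ugt-38 was listed at 0 in all chaetocin libraries and at 0.09, 0.09 and 0 FPKM in the DMSO libraries, and ugt-10, ugt-34 and ugt-35 stayed under 0.1 FPKM throughout. Depth per library is unknown, and a listed 0 does not mean that the gene was silent.

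The genes are unevenly spread over the genome: 41 of the 66 lie on chromosome V, 12 on IV, 5 on I, 4 on X, 3 on III and 1 on II. Of the 28 tested on chromosome V 8 rose and 4 fell, and of the 10 tested on IV 4 rose and 0 fell (limma, adjusted p under 0.05). Over all tested UGT genes 30% rose and 10% fell, so these small counts do not set either chromosome apart from the family. Joining genes less than 10 kb apart gave 11 runs of 2 to 7 members that hold 36 of the genes, and 6 of these runs contained a gene that rose or fell. In 2 runs all members rose: ugt-1 and ugt-2 within 5.6 kb on chromosome V, and ugt-19 and ugt-20 within 6.9 kb on chromosome IV. In the other 4 of these 6 runs some members passed and others did not, and the difference between neighbours was not tested. In the run of ugt-5, ugt-4, ugt-6 and ugt-3 (chromosome V, 12790676 to 12800271, all on the minus strand) ugt-3 rose. The other 3 had log2 fold changes of -0.60, -0.57 and -0.61 that did not pass (limma, BH-adjusted p = 0.063, 0.06389 and 0.09068), with all chaetocin libraries below all DMSO libraries in each gene. The 95% interval of ugt-3, 4.19 to 6.49, lay far from those of its neighbours, whose upper ends were -0.24, -0.23 and -0.20.

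The longest run, from ugt-12 to ugt-13 on chromosome V (4887165 to 4911399), has 7 members in 24.2 kb. Its outermost genes, ugt-12 and ugt-13, fell, while ugt-9 in the middle rose by 0.67 on the log2 scale. ugt-11 and ugt-8 did not pass (limma, BH-adjusted p = 0.2901 and 0.0649), and ugt-10 and ugt-14 were too low to test. Also in this run lies T19H12.2, a protein-coding gene of another name, with 615, 591 and 582 FPKM in the chaetocin libraries, against 595, 607 and 644 FPKM in the DMSO libraries (limma, BH-adjusted p = 0.6504). On chromosome I, ugt-26 and ugt-28 rose, ugt-25 did not pass (log2 fold change 0.10 ± 0.14; limma, BH-adjusted p = 0.7477) and ugt-27 was at or below 0.24 FPKM in every library. On chromosome IV, ugt-44 rose and its neighbour ugt-43 had a log2 fold change of -0.22 ± 0.15 (limma, BH-adjusted p = 0.4877). The 5 runs with no gene that rose or fell held 15 genes. The largest of them, 6 genes from ugt-40 to ugt-36 on chromosome V, had 4 members too low to test.

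**Figure D3:**
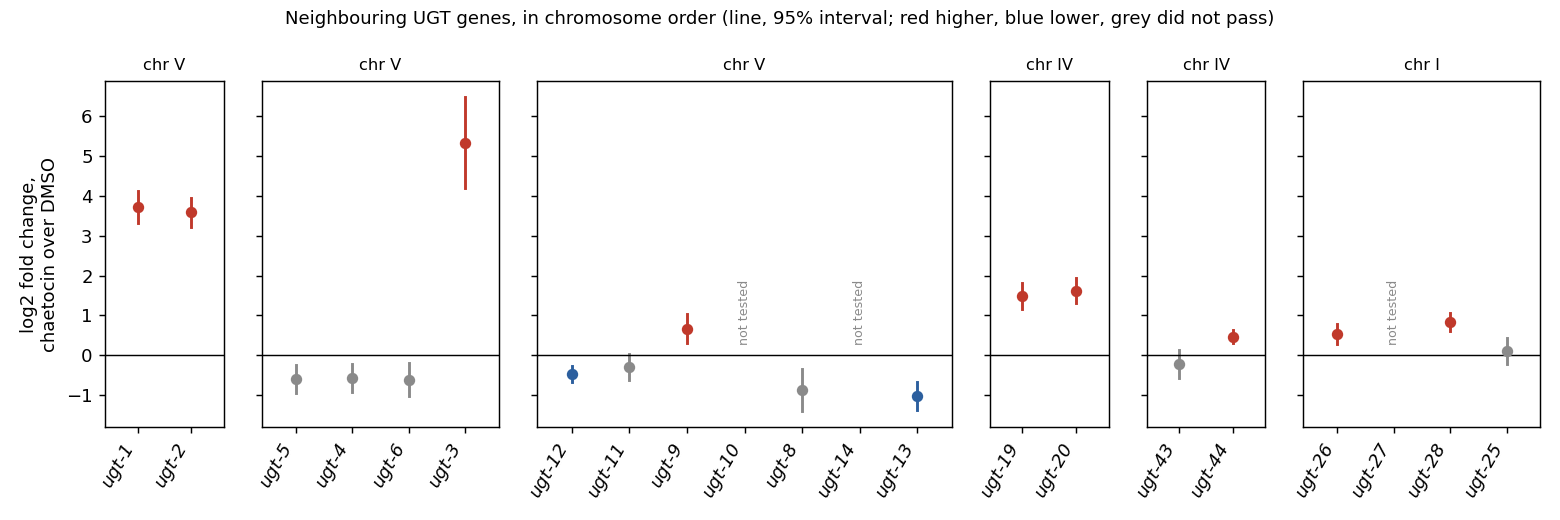
Log2 fold change of chaetocin over DMSO with 95% limma intervals for the 6 runs of neighbouring UGT genes that contain a gene past the threshold, in chromosome order. Red points rose, blue points fell, grey points did not pass. ugt-3 stands at 5.34 beside neighbours near -0.6, while ugt-1 and ugt-2 stand together at 3.72 and 3.59.

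Summed over the 66 genes, UGT transcripts came to 514, 519 and 539 FPKM in the chaetocin libraries, against 277, 278 and 288 FPKM in the DMSO libraries. ugt-62, ugt-1, ugt-2 and ugt-61 made up 43.1, 43.7 and 43.6% of this sum in the chaetocin libraries, against 7.54, 7.77 and 8.89% in the DMSO libraries. These genes were grouped after their values were seen. With ugt-3 and ugt-48 also set aside, the other 60 genes summed to 266 ± 3.65 FPKM with chaetocin and 255 ± 2.72 FPKM with DMSO (SD, n = 3 each). The 6 genes set aside summed to 258 ± 10.4 FPKM with chaetocin and 25.7 ± 3.61 FPKM with DMSO (SD, n = 3 each). The order of levels changed with it: with chaetocin the leading genes were ugt-62, ugt-1, ugt-2, ugt-44 and ugt-61, and with DMSO they were ugt-64, ugt-44, ugt-49, ugt-58 and ugt-23. ugt-1, ugt-2 and ugt-3 ranked 2, 3 and 8 with chaetocin, against 20, 24 and 50 with DMSO.

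**Figure D4:**
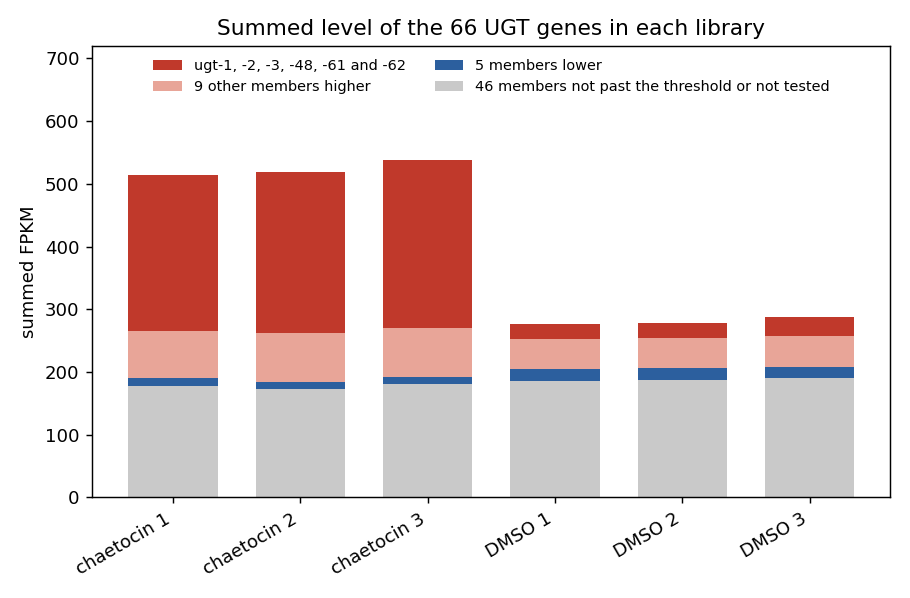
Summed FPKM of the 66 UGT genes in each library, stacked by set: 6 genes at least 4-fold higher (red), 9 other genes that rose (light red), 5 that fell (blue) and 46 that did not pass or were not tested (grey). The 3 chaetocin bars reach 514 to 539 FPKM and the 3 DMSO bars 277 to 288 FPKM, and most of the gap is the red segment.

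For 48 of the 66 genes the transcript table lists 1 transcript. The other 18 were examined with the same fit on the transcript table, chosen after the values were seen; 3.11% of the 21002 transcripts tested were higher and 1.52% lower. Of the tested transcripts of these genes 2 passed, C33A12.6a.1, which carries all of the ugt-21 signal, and C07G3.9b.1 of ugt-64. ugt-26, ugt-9 and ugt-29, which rose at the gene level, had no transcript that passed. Their lowest BH-adjusted p (limma) were 0.1408 (C10H11.6a.1), 0.1457 (T19H12.1a.1) and 0.6474 (Y49C4A.8a.1). T19H12.1a.1 carries all of the ugt-9 signal, since the other listed transcript, T19H12.1b.1, was at 0 FPKM in every library. The log2 fold change of T19H12.1a.1, 0.67 ± 0.19, was close to that of the gene, 0.67 ± 0.15, although only the gene passed. C07G3.9b.1, the ugt-64 transcript with the shortest coding sequence (1383 bases, against 1503 bases in the other 3), had 1.48, 6.38 and 7.51 FPKM in the chaetocin libraries, against 0.02, 0.17 and 0.24 FPKM in the DMSO libraries. The groups did not overlap although chaetocin replicate 1 was much lower than the other 2, and the log2 fold change was 4.27 ± 0.73 (limma, BH-adjusted p = 0.02833). The ugt-64 gene level did not differ, as given above. The transcript C07G3.9a.1 ranged from 0 to 10.3 FPKM in the chaetocin libraries and from 0.38 to 5.75 FPKM in the DMSO libraries, so the split between these overlapping transcripts was unsteady within groups. The C07G3.9b.1 call was lost in 7 of 13 alternative settings, among them every fit without 1 library other than chaetocin replicate 1 (adjusted p up to 0.1157). The C33A12.6a.1 call was lost without chaetocin replicate 3 (adjusted p = 0.05085).

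**Figure D5:**
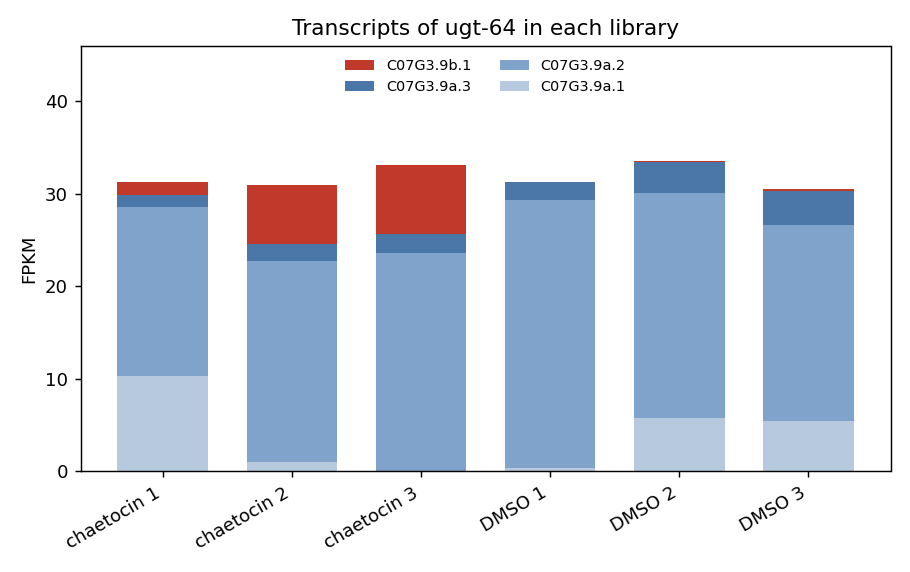
FPKM of the 4 listed transcripts of ugt-64, stacked for each library. The bars are equally high in both groups, while C07G3.9b.1 (red) takes 1.48 to 7.51 FPKM in the chaetocin libraries and at most 0.24 FPKM in the DMSO libraries.

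Of a list of 17 genes of UDP-sugar supply and use other than the UGT genes, 16 were found and 15 tested. In this short list 0 passed in either direction (limma; 3 at an unadjusted p under 0.05), where 8.42% of all tested genes passed, so the count does not set the list apart from other genes. sqv-4, the UDP-glucose dehydrogenase that makes UDP-glucuronic acid, had 125, 123 and 122 FPKM in the chaetocin libraries, against 121.9, 126.6 and 118.8 FPKM in the DMSO libraries. Its groups overlapped, with a log2 fold change of 0.02 ± 0.04 (limma, BH-adjusted p = 0.8139). The nearest to passing was cgt-1, a ceramide glucosyltransferase that uses UDP-glucose, with a log2 fold change of 0.50 ± 0.14 (limma, BH-adjusted p = 0.08869). Of 20 regulators of detoxification and stress responses, 19 were tested; 1 rose and 0 fell, a share near the 5.48% of all tested genes that were higher. The regulator that rose was nhr-8, a nuclear hormone receptor known for its part in xenobiotic resistance, with 14.8, 15.2 and 14.7 FPKM in the chaetocin libraries, against 12.49, 12.5 and 13.2 FPKM in the DMSO libraries. All chaetocin values were higher by a small margin, with a log2 fold change of 0.24 ± 0.05 (limma, BH-adjusted p = 0.04177), and the call was lost without any 1 library and on unscaled FPKM. Without DMSO replicate 3, 2 of the 19 regulators and 1 of the 15 UDP-sugar genes tested were lower. In the main fit 2.94% of all tested genes were lower, and that number also moved between fits without 1 library, as given below. Such small counts do not set either list apart from other genes. The transcription factor skn-1 had a log2 fold change of -0.07 ± 0.06 (limma, BH-adjusted p = 0.5314).

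Libraries summed to between 1232966 and 1326067 FPKM, with 18747 to 18933 genes above 0. Marker genes listed for intestine, body wall muscle, pharynx, neurons, hypodermis, germline and sperm were, where found in the table, above 0 in every library. Of 6 intestinal markers 5 were tested and 3 rose: act-5, the actin of the intestinal brush border, had 249, 234 and 245 FPKM in the chaetocin libraries, against 55.8, 57.3 and 70.2 FPKM in the DMSO libraries, and ges-1 and ifb-2 rose by 0.28 and 0.34 on the log2 scale. The intestinal markers elt-2 and vha-6 did not pass (log2 fold change -0.09 and -0.13; limma, BH-adjusted p = 0.428 and 0.3013). The 5 intestinal markers together summed to between 496 and 529 FPKM with chaetocin and between 297 and 310 FPKM with DMSO. Without act-5, which carried most of this difference, the other 4 summed to 280.1, 262 and 271 FPKM in the chaetocin libraries, against 241, 243 and 239.5 FPKM in the DMSO libraries. Of the 24 markers of the other 6 tissues 0 passed in either direction (limma; 3 at an unadjusted p under 0.05). Of all tested genes 8.42% passed, so in so short a list this count does not set these markers apart from other genes. The part of the intestinal markers in the UGT result was not tested, and in whole animals fewer cells of a type and less RNA per cell cannot be told apart.

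In the authors' deposited table, which holds their own comparison of 16062 genes, 62 UGT genes are listed; its sign, DMSO over chaetocin, is reversed here to chaetocin over DMSO. At p under 0.05 in the authors' deposited table, 15 UGT genes were higher and 10 lower, where 5.57% and 3.49% of all its genes were higher and lower. All 15 genes that rose and all 5 that fell in the limma fit had a p under 0.05 in the same direction in the authors' deposited table. The further 5, all lower with chaetocin in the authors' deposited table, were ugt-4, ugt-5, ugt-6, ugt-8 and ugt-30. For ugt-3 the authors' deposited table gives a log2 fold change of 5.33, and for ugt-62 one of 3.24. For ugt-30, not tested in the limma fit, the authors' deposited table gives a log2 fold change of -1.08 with p = 0.0455.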

How the data were processed

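From total RNA of 3 chaetocin and 3 DMSO samples, libraries were prepared with a SMARTer mRNA-Seq kit, per the labels' protocols. The authors deposited FPKM per gene and per transcript, 1 column per library; this unit was read from the values, since column sums differ and the ratio of mean normalized count to FPKM rises with transcript length (r = 0.919 over 14267 genes, not independent points). Per the submitters' processing notes, the tools were STAR 2.7.9a, RSEM 1.3.1, Trimmomatic 0.36, FastQC 0.11.4 and MultiQC, and the build was WBcel235. For the annotation release and the strand setting nothing is given in the sources used here, and overlapping genes are therefore uncertain. RSEM splits fragments that match several genes or transcripts by estimation. The authors' deposited comparison holds a log2 fold change (DMSO over chaetocin), a standard error (a score), a p-value and a mean normalized count (a signal value) per gene. Adjusted p-values rebuilt from the fold change and its standard error were 0.9903 times the deposited p-values at the median, so those were taken as adjusted.

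Gene FPKM were scaled by trimmed means of log ratios without weights (30% of ratios and 5% of means trimmed at each end; factors 0.9766 to 1.0308) and fitted on log2(FPKM + 0.1) in limma 3.58.1 (R 4.3.3), 2-sided, with a variance trend. The filter kept genes at 0.5 FPKM or above in 3 or more libraries, with Benjamini-Hochberg adjustment over all 15213 genes. Levels in the text are FPKM as deposited. The fit was tested on simulated data with 50 changed genes at each fold change. It recovered 50% of those changed 1.5-fold, 82% at 2-fold, 90% at 4-fold and 96% at 8-fold. Of its 169 calls 10 were false, so small changes among genes that did not pass can have been missed. Depth per library is unknown, so no counting intervals are given. Positions come from the Ensembl annotation of WBcel235, which holds all 66 genes under the same names. Named are all members past the threshold, the 3 nearest to it and the 3 most abundant. So are members of runs with a named gene and those next to the filter. Added after their values were seen were ugt-22, ugt-23, ugt-31, ugt-38, ugt-49, ugt-50 and ugt-58, some genes too low to test, sqv-4, cgt-1 and skn-1. The same holds for ugt-45, ugt-46, ugt-53, ugt-54, ugt-57 and ugt-60, named in the closing sections. Members and lists were chosen with earlier results of these data known. The planned promoter motif search was not run, since no sequences were used here.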

Additional observations from a re-analysis of the deposited data

How the results depend on the processing

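The 13 alternatives changed the pseudocount, filter, scaling, variance prior or replicate block, or left out 1 library. Of the 15 UGT genes that rose, 11 were called under all 13, as was ugt-13 of the 5 that fell; no gene that rose or fell changed sign. The number of UGT genes that fell was 3 with a mean filter of 1 FPKM, 8 with 1 common prior and 1 to 5 without 1 library. With 1 common prior ugt-4, ugt-8 and ugt-41 passed as well (limma, BH-adjusted p = 0.04309, 0.005781 and 0.02539), while 406 of all 15213 genes were lower. Under the mean filter ugt-63 (mean 0.875 FPKM) was not tested and ugt-66 did not pass, and 439 of all 13810 genes were lower. Why the count moved without 1 library was not tested. The calls of ugt-9 and ugt-66 were lost with that mean filter (adjusted p = 0.08109 and 0.05224), and the ugt-9 call with no filter (adjusted p = 0.07165). The nhr-8 call was lost (0 regulators higher) on unscaled FPKM and in all 6 fits without 1 library (0 to 0), in which 0 to 2 regulators and 0 to 1 UDP-sugar genes were lower. Without 1 library the number of lower genes among all genes was 281 to 539. Signs turned in 6 genes that did not pass: without 1 library the log2 fold change of ugt-22 ranged from -0.162 to 0.01, of ugt-45 from -0.0176 to 0.0199, of ugt-46 from -0.1401 to 0.001, of ugt-54 from -0.0331 to 0.0879, of ugt-57 from -0.1154 to 0.4214 and of ugt-64 from -0.0339 to 0.0556.

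Deviations from the group means correlated by 0.106, 0.067 and -0.026 between same-numbered libraries over 15213 genes. Between libraries of different number the correlations were -0.15 to 0.078. The labels do not say that a shared number marks a shared culture, so the numbers were not taken to pair libraries. These are the replicate numbers of the labels; the titles number the DMSO libraries NA1, NA3 and NA4, so that DMSO replicates 2 and 3 carry other numbers there. With the replicate block 12 UGT genes were higher, without ugt-7 (adjusted p = 0.05041), ugt-9 and ugt-26, and 1, ugt-13, was lower, 578 and 259 of all genes were higher and lower, and 0 regulators were higher. Depth per library is unknown, which limits statements on the 16 genes too low to test.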

Other observations

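One further gene carries a ugt name, ugt-67, in the Ensembl annotation of WBcel235 but stands under H23N18.4 in the deposited table and was therefore not among the 66. It lies between ugt-10 and ugt-8 on chromosome V (4901374 to 4903272). It was listed at 0.07, 0 and 0.02 FPKM in the chaetocin libraries and at 0.07, 0 and 0.02 FPKM in the DMSO libraries, too low to test.

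The authors' deposited table gives a mean normalized count for 62 of the genes. Set against mean FPKM and transcript length, ugt-57 stood 2.04 log2 units above the median of 14267 genes, ugt-53 1.0015, ugt-3 0.971, ugt-60 0.783 and ugt-26 0.777, where the 95th percentile was 0.77. ugt-57 had 1.53, 1.33 and 1.4 FPKM in the chaetocin libraries, against 1.2, 0.88 and 2.02 FPKM in the DMSO libraries, with a mean normalized count of 387 in the authors' deposited table.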
